A study of Salmo salar with 59 samples.

Results

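The 6 genes described here are the interferon regulatory factor genes irf3, irf4l, irf5, irf7 and irf9 of Atlantic salmon, and irf2bpl. The last is named for its likeness to a binding protein of such a factor. They were chosen by name alone, as every probe whose RefSeq transcript belongs to a gene with a symbol of irf followed by a digit in the Ssal_v3.1 gene table. That table holds 8 such genes, and 6 of them, each with 1 probe, were among the 25270 genes that the array's 42386 probes could be matched to. The other two, irf1b and irf2b, had no matched probe and were not analysed here. Genes known only by a LOC number were not searched for further family members.

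Interferon regulatory factors are transcription factors that bind a shared DNA motif in the promoters of interferons and of the genes that interferons induce. In mammals, irf3 and irf7 switch on interferon genes once a viral sensor has fired, irf9 takes part in carrying the interferon signal to the nucleus, irf5 works mainly in phagocytes and B cells, and IRF4 in lymphocytes. In the mammalian testis, somatic cells around the germ cells can mount interferon responses.

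Expression was measured on 59 one-colour Agilent arrays from testis (20 arrays), pituitary (20) and adipose tissue (19) of 20 male post-smolt salmon reared in brackish water. The 6 pubertal males (testis stage III to V) had larger testes for their body weight, a measure called the gonadosomatic index (GSI), than the 14 immature males (stage I). The fish came from light group A (continuous light, 3 pubertal and 2 immature), group B (increasing light, 3 pubertal and 2 immature), group D (decreasing light, 5 immature) and group E (decreasing light and a low-fat diet, 5 immature). All pubertal fish were in A and B. Each array held RNA from 1 organ of 1 fish, and p-values measure the spread between these arrays. Array probes cannot tell near-identical gene copies apart, and the probe sequences were not used here. All values are log2 of the background-corrected signal less that array's 75th percentile, so that 0 marks a spot as bright as that percentile; a fold is 2 to the power of a difference. A probe was called where the limma adjusted p over all probes tested was under 0.05 and the log2 difference exceeded 0.8, which is a fold of 1.741.

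Between 51.1% and 86.6% of the probes were well above background on an array. Adipose arrays differed most in brightness, with a 75th percentile of 39.0 to 485 signal units. The pituitary array of pubertal fish 184 stood apart, with a median correlation of 0.76 with the other pituitary arrays, and its summed pituitary hormone markers reached 0.33 against at least 1158 on the arrays of immature fish. That array was left out of the pituitary comparison. The adipose array of pubertal fish 202 carried testis markers, with summed germ cell markers of 30.4 against at most 2.14 on the other adipose arrays, and that of immature fish 236 carried pituitary hormone markers at a sum of 64.6 against at most 3.99. One testis array is titled fish 226 but carries another fish number in a second label (the title was followed), and one adipose array of group E is labelled fish 211, a number that a pubertal fish of group B also has, so its maturity is not known. No member spot was saturated, and all members were well above background on every array except irf2bpl.

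In the testis, irf9, irf5 and irf2bpl were lower in pubertal than in immature fish, irf4l was lower by less than the required fold, and irf7 and irf3 did not pass the test. Thus 3 of the 6 probes were called, all lower, where 59.1% of the 35618 probes tested were called and 27.2% were called lower. The call of irf2bpl came from a dim probe that was tested only because the immature arrays had it above background. That call was lost with another background correction, as given below. The median difference over the 6 probes, irf2bpl included, was -1.13, against 0.29 over all probes tested. All arrays measured whole organs, so fewer cells of a type and less RNA per cell cannot be told apart.

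irf9, the DNA-binding subunit of the complex that interferon activates, had the largest change. Its value was -0.71 at the lowest, -0.20 at the median and 0.56 at the highest in the 6 pubertal testes, against 1.59, 2.24 and 2.63 in the 14 immature testes. The groups did not overlap. Of all probes 25.1% did not overlap, 12.1% with pubertal testes lower, and of the members 2 did not. The means were -0.12 ± 0.45 in pubertal and 2.22 ± 0.26 in immature testes (SD, n = 6 and 14), a log2 difference of -2.33 (SE 0.17, 95% interval -2.69 to -1.98, adjusted p = 2.7e-10), or 5.04-fold lower. It kept this call under all 19 other settings tried, with differences of -2.82 to -2.06, and was at -2.43 within the one scan day that held 5 pubertal and 11 immature testes. The paper lists a far larger fall in pubertal testes under the name irf9, for what it describes as a fish-specific gene derived from irf9. The paper describes that gene in its passage on gonad-specific genes. The probe described here was not confined to the gonad, with a mean of 2.14 in immature adipose tissue, beside 2.22 in immature testes. Whether it measures the paper's gene was not examined further, so the 2 falls should not be equated.

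irf5, a factor that in mammals drives inflammatory cytokines downstream of Toll-like receptors, varied more among pubertal fish. It lay at -1.63, -0.13 and 1.34 (lowest, median and highest) in pubertal testes, against 1.37, 1.90 and 2.13 in immature testes. The groups did not overlap, but the highest pubertal value (fish 184) lay next to the lowest immature one (fish 160). The difference was -2.14 (SE 0.29, adjusted p = 1.2e-06), or 4.41-fold lower in pubertal testes, and -2.46 within that scan day.

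irf2bpl is not itself an interferon regulatory factor, and its probe was dim. It read -6.40, -5.23 and -4.65 (lowest, median and highest) in pubertal testes, where 3 of 6 arrays had it well above background, against -4.76, -3.67 and -3.31 in immature testes, where all 14 did. The immature fish 160 lay below the 2 highest pubertal fish, so the groups overlapped, and the difference was -1.50 (SE 0.24, adjusted p = 9.1e-06), with 3 of the 6 pubertal values dimmer than that limit. The probe was tested only because the immature arrays had it above background, and it was not tested where every array had to. With normexp background correction the difference was -0.27 (adjusted p = 0.54), which is not past the threshold.

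irf4l, named for its likeness to the lymphocyte factor IRF4, differed by -0.75 (SE 0.14, adjusted p = 6.2e-05), which did not reach the limit of 0.8. Its values lay between -0.15 and 0.73 in pubertal testes, against 0.71 and 1.44 in immature testes, and the groups overlapped. irf7, which in mammals amplifies interferon production, averaged -2.95 ± 0.99 in pubertal and -2.95 ± 0.25 in immature testes (SD, n = 6 and 14), with a 95% interval of the difference from -0.56 to 0.56. Its mean hid a wide range among pubertal fish, described below in the order of GSI. irf3, the constitutive partner of irf7 in mammals, averaged 0.66 ± 0.17 and 0.54 ± 0.36 in the same groups, with an interval of -0.23 to 0.47.

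**Figure D1:**
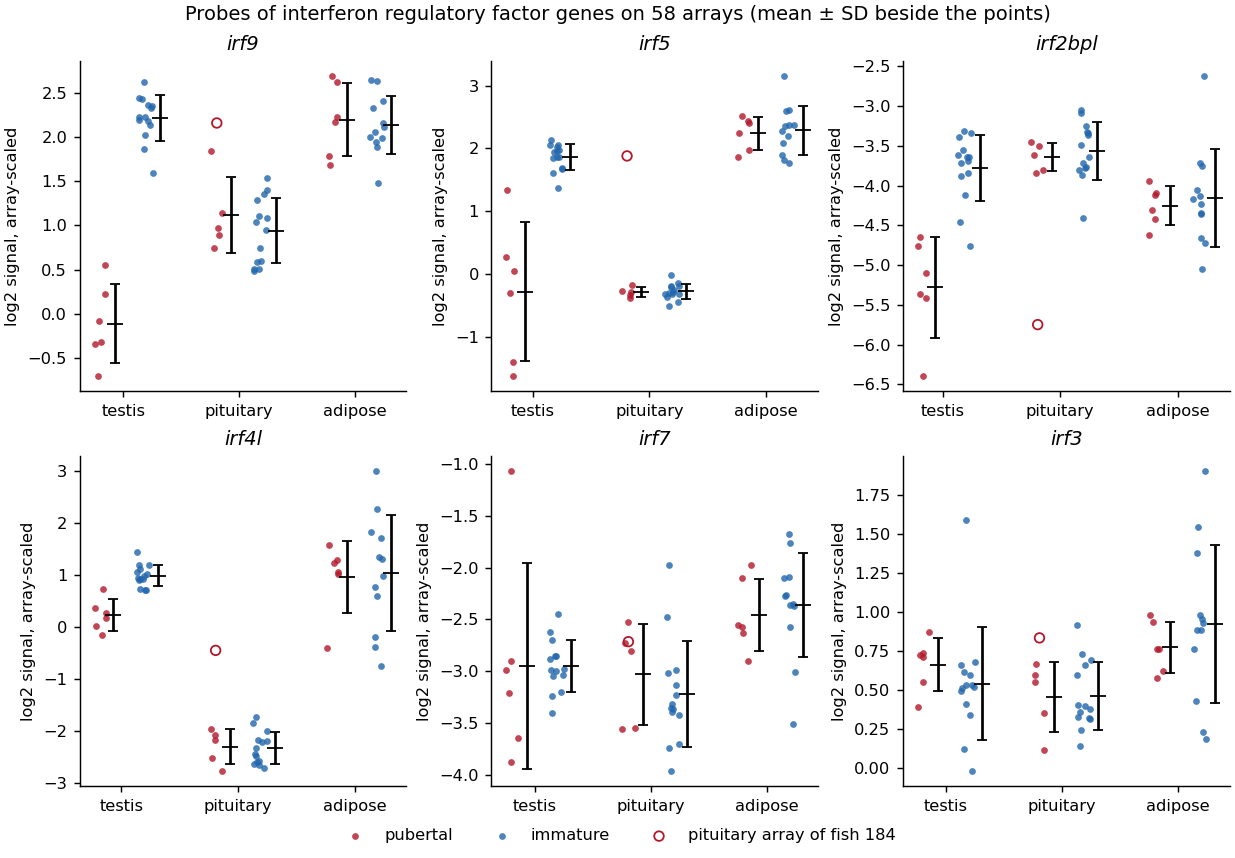
Each panel shows 1 probe; the y axis is the log2 signal scaled to the array's 75th percentile, points are arrays of pubertal fish (red, left of each pair) and immature fish (blue), and bars are the mean and SD (n = 6 and 14 in testis, 5 and 14 in pituitary, 6 and 12 in adipose). irf9 and irf5 separate pubertal from immature testes without overlap, while the other organs show no such gap; the open circle is the pituitary array of fish 184, which does not enter the pituitary mean.

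Of 53 probes for interferon pathway genes, 51 were tested in the testis, 29 were called lower and 6 higher in pubertal fish, and their median difference was -1.27. Of all probes tested in the testis, 27.2% were called lower and 31.9% higher. By role, 4 of 4 tested sensors of viral nucleic acid were called lower, including tlr21 (-2.25) and rigi (-2.18, the cytosolic RNA sensor). Among adaptors and kinases 4 of 5 were called lower, led by traf3 (-1.51) and myd88 (-1.21, the adaptor of Toll-like receptors). Among interferons, receptors and JAK-STAT genes 4 of 10 were called lower, led by stat6 (-2.17) and ifng (-1.82, interferon gamma), whereas stat2, the partner of irf9, had a difference of -0.49 and was not called.

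Interferon-stimulated effectors gave 14 of 23 lower and 3 higher, with a median of -2.18. The antiviral GTPase gene mx (-3.93) and the nucleotide kinase gene cmpk2 (-3.17) fell most. The list was drawn up by gene symbol. Its largest increases were parp2 (2.20) and parp1 (0.99), enzymes known for DNA repair rather than as interferon-stimulated genes. Negative regulators were divided, with 3 of 9 higher, led by ptpn2b (1.75) and pias2 (1.53), and 3 lower, led by nlrc3 (-3.07) and tnfaip3 (-2.85). In the pituitary none of 49 tested interferon probes was called, where 0.304% of all probes were, and their median difference was -0.02.

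**Figure D2:**
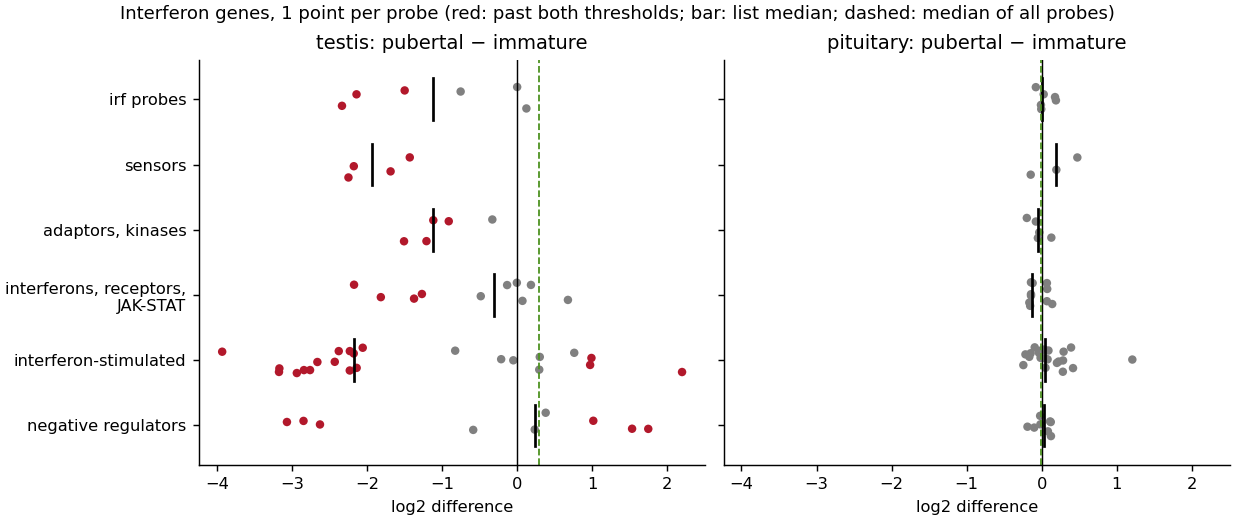
Log2 differences between pubertal and immature fish (x axis) for the irf probes and for interferon genes grouped by role (rows), with 1 point per probe, in testis (left) and pituitary (right). Red points passed both thresholds, black bars are list medians and the dashed line is the median of all probes; in the testis the sensors (median -1.93) and stimulated genes (median -2.18) lie left of that line at 0.29, and in the pituitary the medians lie between -0.13 and 0.19.

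Cell type markers moved too, where 27.2% of all probes tested in the testis were called lower and 31.9% higher. Of 12 leukocyte marker probes, 10 were called lower and 1 higher in pubertal testes, and their summed linear level ran from 19.2 to 69.9 (median 28.6) in pubertal against 53.7 to 115 (median 80.3) in immature testes, with 7 to 11 probes and 10 to 12 probes well above background, and the groups overlapped. In the testis cd74a made up a median of 65.1% of this sum and ncf4, a subunit of the phagocyte oxidase, a median of 21.8% and up to 89.8% on 1 array. Both Sertoli cell markers were called lower, with a summed level of 15.96 to 67.2 in pubertal against 93.3 to 171 in immature testes. All 4 Leydig cell markers were called lower, with sums of 1.09 to 2.35 against 7.61 to 16.6. Of 11 germ cell markers 7 were called higher and 1 lower, with sums of 258 to 384 against 94.6 to 149. None of these 3 sums overlapped between pubertal and immature testes. The adipocyte list was divided. Of its 8 tested probes 5 were called lower and 1 higher, while its sum was higher, at 111 to 210 in pubertal against 17.5 to 83.4 in immature testes. A sum can thus move against most probes of its list. The part of these shifts in the irf9 and irf5 differences was not tested.

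Whether the maturity effect differed between testis and pituitary was tested as the difference of the effects in these organs. Fish was a random block. Adipose arrays did not enter, and the fit had no term for light group, although all pubertal fish were in A and B. irf9 differed by -2.64 (SE 0.24, adjusted p = 1.3e-11), irf5 by -2.45 (SE 0.24, adjusted p = 5.2e-11) and irf2bpl by -1.53 (SE 0.29, adjusted p = 2.1e-05), which was -0.14 (adjusted p = 0.85) and not called with normexp. Fish 184, which had the highest irf9 and irf5 of the pubertal testes, was left out of both organs here, so 5 pubertal fish entered for each. These were 3 of 6 probes called, against 55.7% of the 38211 probes tested, and the test shares most of its testis arrays with the comparison above. The same contrast called 31 of 52 interferon probes lower and 6 higher, where 24.1% of all probes were called lower and 31.6% higher.

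In the pituitary, none of the 6 probes was called with limma, where 0.304% of 34826 probes were called. None passed at an unadjusted p under 0.05 with the fold limit (1.66% of probes did), and none passed the methods' t-test, adjusted or not. irf9 read 0.74, 0.89, 0.98, 1.14 and 1.85 in the 5 pubertal pituitaries, against 0.48 to 1.53 (median 0.9995) in the 14 immature ones. Pubertal fish 211 was above the range of immature fish, and the others were within it. The difference was 0.18 (95% interval -0.24 to 0.59), and -0.07 within the one scan day that held all 5 pubertal and 6 immature pituitaries. This fit had no term for light group, although all pubertal fish were in A and B. Mean irf9 of immature pituitaries was 1.41 in A and 1.24 in B, against 0.74 in D and 0.84 in E. Over 19 alternatives the irf9 difference ran from -0.23 to 0.35, so its sign is not settled. The value of -0.23 came from groups A and B alone with light group as a block. irf5 had a narrow range, -0.39 to -0.17 in pubertal and -0.51 to -0.03 in immature pituitaries, with a difference of -0.01 (95% interval -0.19 to 0.17). The other 4 probes had differences between -0.08 and 0.19. Fish 160 and 250 counted as immature here, although the paper says they may be classed as maturing by hormones and pituitary expression. Without them no member was called either, where 0.872% of probes were.

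In adipose tissue, pubertal and immature fish of A and B were compared with light group held as a block, and none of the 6 probes was called; no probe on the array was (0%), and 6.82% of probes passed at an unadjusted p under 0.05 with the same fold limit, none of them a member. irf9 lay at 1.69, 2.21 and 2.70 (lowest, median and highest) in the 6 pubertal fish, against 1.89, 2.003, 2.34 and 2.64 in the 4 immature fish. The groups overlapped, with a difference of -0.02 (95% interval -0.63 to 0.60). It was 0.03 without fish 202, whose array carried testis markers, and -0.23 within the scan day of 3 pubertal and 2 immature arrays. irf4l had a difference of -0.13 with an interval of -1.61 to 1.35. Of the interferon probes, none of 52 was called, with a median of -0.24.

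**Figure D3:**
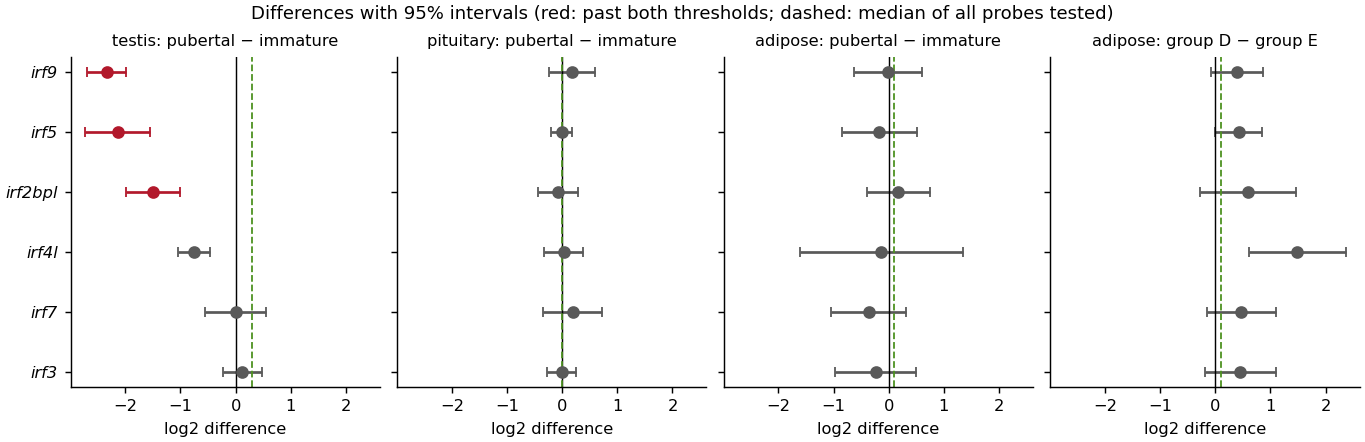
Log2 differences (x axis) with 95% intervals for each probe (rows) in 4 comparisons; red marks probes past both thresholds and the dashed line the median of all probes tested. Only irf9 (-2.33), irf5 (-2.14) and irf2bpl (-1.50) in the testis are called, and in adipose tissue irf4l has the widest interval between pubertal and immature fish.

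Among pubertal testes, irf9 followed the order of GSI. In ascending order of GSI (numbers 184, 190, 213, 245, 211 and 202) it read 0.56, 0.22, -0.09, -0.32, -0.34 and -0.71. Every step was downward, which was so for 1.13% of 32305 probes with values on all 6 arrays. Spearman's rho was -1 and Pearson's r was -0.98, each with an exact permutation p = 0.00278, which is the smallest that 6 fish allow, and r was -0.95 without the fish at either end of the order. The limma slope was -0.24 per step (SE 0.08, adjusted p = 0.11), so it did not pass the threshold over all probes; no probe did (0%), and 28.6% had an unadjusted p under 0.05, among them 3 of the 6 members. These correlations were chosen after the values had been seen. In this order the fish came from light groups A, A, B, A, B and B, and the permutations ran across both groups. The parts of GSI order and light group thus cannot be told apart in these fish.

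irf5 and irf7 had slopes of opposite sign along the same order, neither past the threshold. irf5 read 1.34, 0.04, 0.27, -1.40, -0.30 and -1.63, with a slope of -0.50 (SE 0.14, adjusted p = 0.076), Pearson's r of -0.85 (exact permutation p = 0.042) and Spearman's rho of -0.89 (exact permutation p = 0.033). Without the first and last fish r was -0.47, and the few fish left cannot show whether the relation rests on those fish. With normexp correction the slope was -0.40 (adjusted p = 0.0031), and with each array scaled to its median -0.62 (adjusted p = 0.047). irf7 read -3.64, -3.87, -3.20, -2.90, -2.99 and -1.07, with a slope of 0.45 (SE 0.13, adjusted p = 0.079), r of 0.85 (exact permutation p = 0.014) and rho of 0.89 (exact permutation p = 0.033), and r was 0.87 without the first and last fish. Fish 202, the only one labelled stage V, was far above the others, and the slope was 0.23 without it (adjusted p = 0.33). By most advanced cell type the paper also scores fish 245 and 211 as stage V, and irf7 read -2.90 and -2.99 in them. The permutation p-values are raw, for 6 relations; after Benjamini-Hochberg adjustment irf9 stayed under the threshold of 0.05, irf7 did so by r but not by rho, and irf5 did not. The interferon probes had a median slope of -0.20 per step, with 36 of 48 negative and none called, and all probes one of 0.05.

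In the 14 immature testes no member was called along the order of GSI, no probe was (0%), and 1.54% of probes had an unadjusted p under 0.05, none of them a member. irf9 had a slope of -0.01 per step (95% interval -0.05 to 0.03) and irf4l, the steepest upward, one of 0.03 (SE 0.02, adjusted p = 0.9999). As a correlation, irf4l gave Pearson's r of 0.60 (permutation p = 0.021) and Spearman's rho of 0.67 (permutation p = 0.010), with r of 0.59 without the 2 farthest fish, the one of 6 such relations with a raw p under 0.05, and it did not stay there after Benjamini-Hochberg adjustment.

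**Figure D4:**
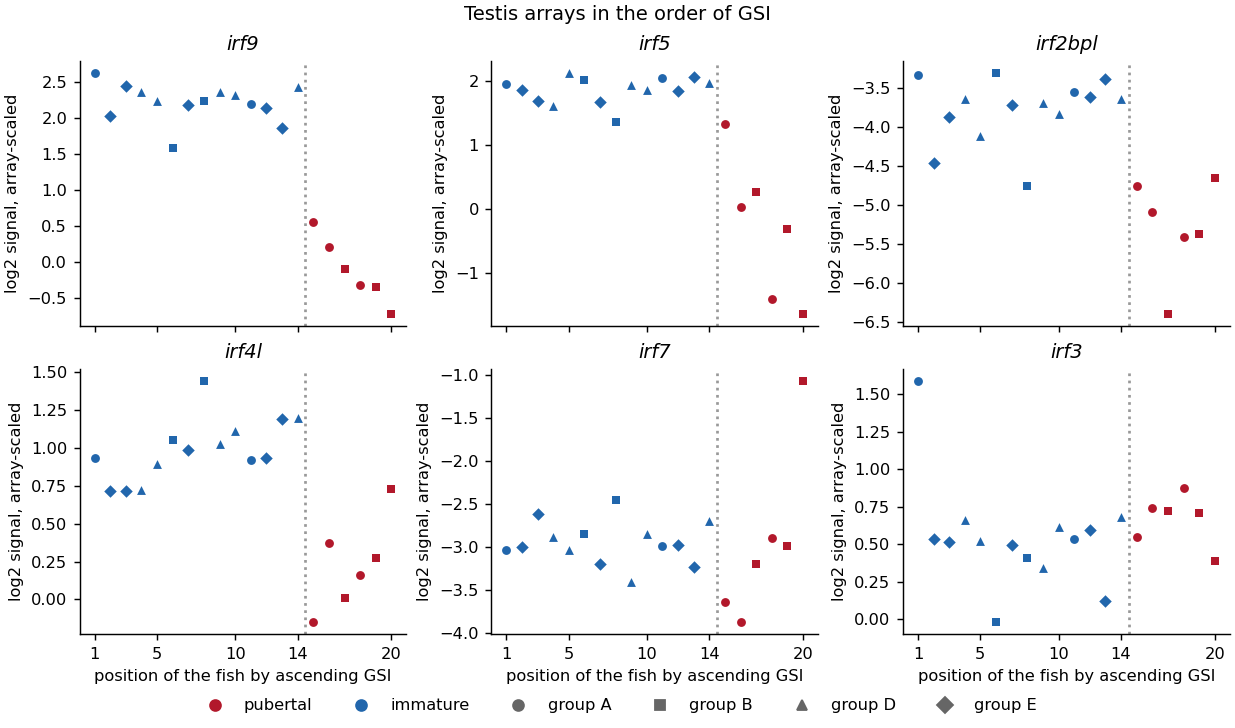
Testis arrays by position of the fish in ascending GSI (x axis), with the array-scaled log2 signal on the y axis; red are the 6 pubertal and blue the 14 immature fish, and symbols give the light group. irf9 declines at each step over the 6 pubertal fish, between 0.56 and -0.71, irf7 of the last fish stands alone at -1.07, and irf9 of the immature fish shows no such order.

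Within 1 maturity class, 4 comparisons between groups were run in testis and pituitary. No member was called in them, and no probe on the array was (0%). Groups D and E shared decreasing light and differed in diet. In the testis, group D minus group E gave irf9 0.21 (95% interval -0.07 to 0.50) and differences of 0.02 to 0.11 for the other 5 probes, and 0.522% of probes passed at an unadjusted p under 0.05 with the fold limit. Groups A and B minus groups D and E gave differences between -0.08 and 0.16, where 1.38% passed unadjusted. In the pituitary, D minus E gave irf2bpl 0.53 (95% interval 0.08 to 0.98, adjusted p = 0.22) and irf9 -0.10, where 8.39% passed unadjusted. irf2bpl and irf7 (0.37) had unadjusted limma p-values of 0.024 and 0.049 there but did not reach the fold limit. Among pubertal testes, B minus A (3 fish each) gave irf9 -0.53 (95% interval -1.50 to 0.43), with -0.71, -0.34 and -0.09 in B and -0.32, 0.22 and 0.56 in A, and 1.57% of probes passed unadjusted. No member passed both the unadjusted threshold and the fold limit in any of these 4 comparisons. Groups A and B were not compared with D and E in the pituitary. Mean irf9 of immature pituitaries was 1.41 in A and 1.24 in B, against 0.74 in D and 0.84 in E. Pituitary arrays of A and B shared 1 scan day with 2 arrays of D, and 3 of D and 5 of E had another. The paper says that fish 160 (1.40, group B) and 250 (1.29, group A) may be classed as maturing by hormones and pituitary expression. The other immature fish of A and B read 1.53 (188) and 1.09 (203). The difference between these groups was not tested.

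Adipose tissue of group D carried higher values of all 6 probes than that of group E, none of them called with limma. No probe on the array was called (0%), and 13.8% passed at an unadjusted p under 0.05 with the fold limit, irf4l alone among the members. The median difference of the 6 was 0.46 against 0.11 over all probes. irf4l read 2.27, 1.83, 1.71, 1.30 and 0.59 in the 5 fish of group D, against 0.98, -0.19, -0.20 and -0.38 in the 4 arrays of group E. The groups overlapped through fish 255 of D and fish 236 of E, and the difference was 1.49 (SE 0.39, 95% interval 0.61 to 2.36, adjusted p = 0.13). Without fish 236, the array with pituitary hormone markers, it was 1.80 and passed (adjusted p = 0.043), where 3.91% of all probes were called, and without the array labelled fish 211 it was 1.40. irf9 read 2.65, 2.41, 2.12, 2.07 and 1.995 in group D, against 2.17, 1.95, 1.84 and 1.49 in group E, a difference of 0.39 (95% interval -0.09 to 0.86). The remaining members differed by 0.43 (irf5), 0.48 (irf7), 0.45 (irf3) and 0.59 (irf2bpl). Of 49 interferon probes tested, 39 had higher means in group D, with a median of 0.48 and none called.

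The submitters' labels class adipose of group D as of high and of group E as of low immune activity, and how that class was assigned is not given in the sources used here. The summed leukocyte markers ran from 265 to 508 in group D and from 119 to 256 in group E, without overlap, with 12 marker probes of 10 genes in the sum. The probe of cd74a, which encodes the invariant chain of MHC class II, made up a median of 72.6% of this sum on adipose arrays, and the T cell markers cd3e and cd8a each made up less than 1%. D arrays had a 75th percentile of 60.4 to 306 signal units and E arrays of 39.0 to 172. Within the one scan day that held 4 arrays of D and 2 of E, the irf4l difference was 1.48 and that of irf9 was 0.23. Groups D and E also differed in diet. The part of diet, leukocyte content and brightness in the D and E differences was not tested.

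Over the 12 immature adipose arrays, irf4l and irf5 followed the summed leukocyte markers. These arrays pool groups A, B, D and E, and the permutations ran across the groups. The p-values thus also take in differences between groups. For irf4l, Pearson's r was 0.87 (permutation p = 0.00028) and Spearman's rho 0.92 (permutation p = 9.0e-05), with r of 0.94 without the 2 farthest arrays and 0.87 within the 8 arrays of one scan day. For irf5, r was 0.76 (permutation p = 0.0058) and rho 0.87 (permutation p = 0.00055), with 0.86 and 0.76 in the same subsets. irf9, irf3, irf7 and irf2bpl gave r of 0.56, 0.57, 0.53 and 0.41, with permutation p of 0.058, 0.055, 0.082 and 0.18, and rho of 0.62, 0.44, 0.42 and 0.25. In the 14 immature testes the same 6 relations gave r between -0.44 and 0.35. With array brightness in adipose tissue, irf7 gave r of 0.64 and rho of 0.69 (permutation p = 0.027 and 0.016), and r of 0.76 without the 2 farthest arrays. irf9 gave r of 0.62 and rho of 0.54 (permutation p = 0.032 and 0.075), and r of 0.63 without the 2 farthest. These p-values are raw; after Benjamini-Hochberg adjustment of those of Pearson's r within each set of 6 relations, irf4l and irf5 with the leukocyte sum in adipose tissue stayed under 0.05, and no relation with brightness there did.

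**Figure D5:**
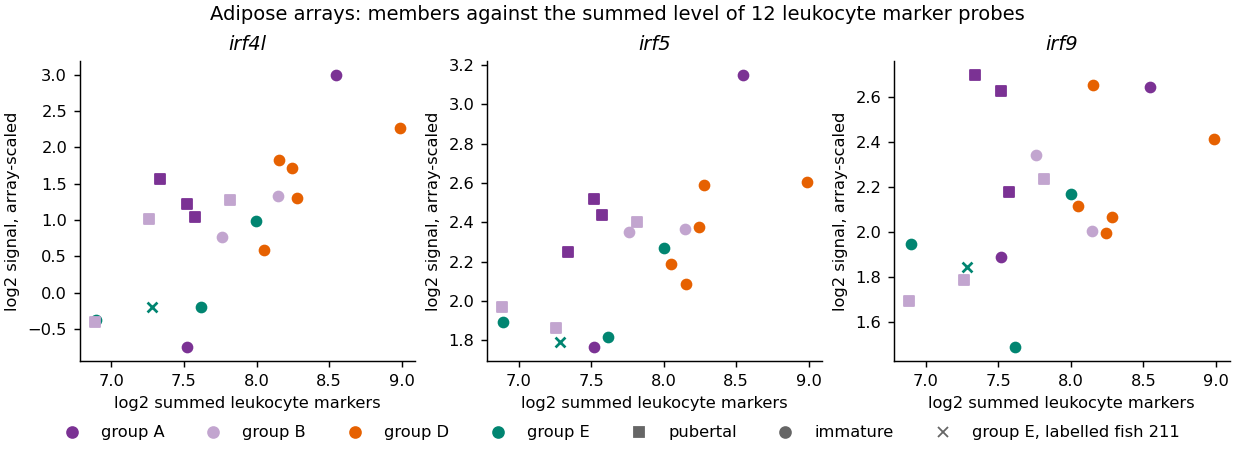
Array-scaled log2 signal of irf4l, irf5 and irf9 (y axes) against the log2 of the summed level of 12 leukocyte marker probes (x axis) on the 19 adipose arrays, with colours for light groups, squares for pubertal and circles for immature fish, and a cross for the array of group E labelled fish 211. irf4l (r of 0.87 over the immature fish) and irf5 (0.76) climb with the markers, group E lies to the left of group D, and irf9 is more scattered (0.56).

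Over the immature fish 14 of 15 pairs of members had a positive Pearson's r in adipose tissue, up to 0.88 for irf4l with irf5 (rho 0.82, permutation p = 2.0e-04 and 0.0020), and 6 of 15 in testis. The share of positive pairs among all probes was not computed. On these adipose arrays, brightness had r of 0.48 (irf5) to 0.64 (irf7) with every member except irf2bpl (0.02). Its part in the pairs was not tested. Whether the organs differ in the sign of the pairs was not tested either. The pair irf3 and irf9 was high in both. In the testis r was 0.77 and rho 0.58 (permutation p = 0.0032 and 0.032, n = 14), with 0.60 without the 2 farthest fish and 0.83 within one scan day (11 arrays). In adipose tissue r was 0.86 and rho 0.89 (permutation p = 4.8e-04 and 2.9e-04, n = 12), with 0.75 and 0.86 in those subsets. These 30 pairs were examined after the values had been seen, and their permutations also ran across groups A, B, D and E. The p-values are raw, and by Pearson's r the pairs named here stayed under 0.05 after Benjamini-Hochberg adjustment over the 15 pairs of an organ.

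Immature fish 188 of group A, chosen after the values had been seen, had the highest irf3 among the immature in each organ, at 1.59 in testis, 0.91 in pituitary and 1.90 in adipose tissue. It also had the highest irf9 in testis (2.63) and pituitary (1.53) and the second highest in adipose tissue (2.64), and the highest irf7 in pituitary (-1.97) and adipose tissue (-1.68) but rank 11 of 14 in testis (-3.04). Its irf4l was the highest in adipose tissue (3.002) and the lowest in pituitary (-2.72). The list of 23 probes for interferon-stimulated effectors includes parp1 and parp2. Of these 23, 12 were highest in this fish among 12 immature adipose arrays, 9 among 14 testis arrays and 7 among 14 pituitary arrays. By its median deviation over those probes it ranked 5 of 14 in the pituitary, and its adipose array was the brightest, with a 75th percentile of 485 signal units. The share of all probes with their highest immature value on the arrays of fish 188 was not computed.

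Fish 160, an immature male of group B chosen after the values had been seen, was at an end of the immature range for 4 of the 6 probes in testis. It had the lowest irf5 (1.37) and irf2bpl (-4.76) and the highest irf4l (1.44) and irf7 (-2.45), with irf9 at 2.24, rank 8 of 14. Its array had the fewest probes well above background of the immature testes (66.5%, against at least 71.0% on the others) and the lowest median correlation with the other testis arrays among them (0.948, against at least 0.963). The share of all probes with an extreme value on this array was not computed. The paper says that fish 160 may be classed as maturing by hormones and pituitary expression. It also reports high serum sex steroids in this fish, and tubules with high cell division in its testis. The part of maturation and of array quality in these values was not tested.

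Across organs of immature fish, irf5 and irf4l were lower in the pituitary than elsewhere, and so was irf9 except with the authors' processed values, where it was not called against adipose tissue. For irf9 the order of means was testis (2.22 ± 0.26, n = 14), adipose tissue (2.14 ± 0.33, n = 12) and pituitary (0.94 ± 0.37, n = 14; all SD). Testis and adipose tissue did not differ beyond their spread, at 0.08 (95% interval -0.17 to 0.34), while testis minus pituitary was 1.28 (SE 0.12, adjusted p = 3.4e-12). For irf5 the order was adipose tissue (2.29 ± 0.39), testis (1.86 ± 0.21) and pituitary (-0.28 ± 0.12), and irf5 was lower in testis than in adipose tissue by less than the fold limit (-0.43, adjusted p = 4.0e-04). For irf4l the order was adipose tissue (1.04 ± 1.11), testis (0.99 ± 0.21) and pituitary (-2.33 ± 0.31).

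Testis minus pituitary called 3 of 6 probes, all higher in testis and without overlap. Of 36028 probes 50.5% were called, 23.3% were called higher in testis, and 13.6% did not overlap in this direction. irf4l was 9.95-fold higher (3.31, SE 0.23, adjusted p = 4.2e-16) and irf5 4.40-fold higher (2.14, SE 0.10, adjusted p = 1.4e-21). Pituitary minus adipose called 4 of 6, all lower in the pituitary, against 52.4% of probes called and 26% called lower. The 4 members were irf4l (-3.37), irf5 (-2.57), irf9 (-1.19) and irf7 (-0.85). With the authors' processed values irf9 was at -0.13 (adjusted p = 0.48) and irf7 at 0.19, neither called, and irf7 was not called with normexp either. Testis minus adipose called none of 6, where 56.8% of probes were called, and the differences ran from -0.58 for irf7 to 0.37 for irf2bpl. With the authors' processed values, all probes had a median of 1.15 in this contrast and all 6 members were called higher in testis, at 0.81 to 1.55. irf3 averaged 0.54 ± 0.36 in testis, 0.46 ± 0.22 in pituitary and 0.92 ± 0.51 in adipose tissue.

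In pubertal fish the organs stood in another order for irf9, with 1.69 to 2.70 in adipose tissue, 0.74 to 1.85 in the 5 pituitaries and -0.71 to 0.56 in testes. This order was not tested.

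The genes most like irf9 over all 20 testis arrays, among 7305 symbols, were parp12a (Pearson's r 0.99), mob3a (0.99), wt1a (0.98, a transcription factor that in mammals marks Sertoli cells), tagln3b (0.98) and malt3 (0.98), each called lower in pubertal testes. These coefficients include the gap between pubertal and immature fish and come from the same arrays. Over the 14 immature testes alone the closest were lg3bp (0.87), bafb (0.85), parp12a (0.80), ifi44g (0.80, an interferon-induced gene) and helz2a (0.79). parp12a was the one gene among both sets of 5.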

How the data were processed

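RNA of each organ was hybridised by the authors to 1-colour Agilent oligonucleotide arrays of 43855 spots (42386 probes). The deposited scanner files hold the spot intensity after background correction by Agilent Feature Extraction 12.0.1.1. A second deposited table, the authors' processed values, holds intensities as whole numbers whose scaling is not stated; it lacks part of the probes and served as an alternative after log2 transformation.

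Each intensity was put on a log2 scale and the array's 75th percentile over non-control spots was subtracted. Outlier spots were left out and duplicate spots averaged. Probes entered a test if detected above background on no fewer arrays than the smaller group held. Differences were tested with limma 3.58.1 in R 4.3.3 (lmFit and eBayes, two-sided) and Benjamini-Hochberg adjustment over all probes tested, after tests on simulated data. Calls needed both an adjusted p below 0.05 and a log2 difference beyond 0.8. Slopes on the order of GSI had no size limit. Fish was a random block between organs (consensus correlation 0.10 for maturity and 0.06 for organs), since organs of 1 fish share its number. Permutation tests used SciPy 1.17.1 with 100000 draws, or were exact for 6 fish. For depth, the number of arrays limits precision.

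Probes were matched to genes through RefSeq accessions in the Ssal_v3.1 table (25420 of 42386 probes). All member probes are named, other list genes by the largest called changes in each role, and likeness by the 5 highest correlations with irf9. stat2 and fish 160 and 188 were chosen after their values were seen. The members, gene lists and tests were chosen with earlier results of these data known. The array of group E labelled fish 211 entered only the comparison of D with E. Alternatives covered background correction, scaling, the filter, slide and scan day, the methods' t-test and leaving out arrays.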

Additional observations from a re-analysis of the deposited data

Results flagged for a closer look

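Of 48 groups of 4 to 10 arrays examined, 7 (14.6%) had an array far from the others by Dixon's criterion, where chance gives about 1 in 20. In pubertal pituitaries these were irf5 at 1.88, irf4l at -0.45 and irf2bpl at -5.75, all on the array of fish 184, whose pituitary hormone markers were nearly absent. In pubertal testes irf7 of fish 202 stood at -1.07, above the next value of -2.90. In pubertal adipose tissue irf4l of fish 211 stood at -0.40, below the next value of 1.02. Among immature fish irf3 stood at 1.54 in the adipose tissue of fish 180 (group D) and at 0.12 in the testis array titled fish 226 (group E), the array with 2 fish numbers in its labels.

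The effect of maturity differed between testis and pituitary, by the interaction test, for irf9 (-2.64), irf5 (-2.45) and irf2bpl (-1.53), and irf2bpl was at -0.14 and not called with normexp.

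The pituitary array of fish 184 entered no main comparison, only an alternative. On it irf9 (2.16), irf5 (1.88) and irf4l (-0.45) were above the highest values of the other 19 pituitary arrays, which were 1.85, -0.03 and -1.73.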

How the results depend on the processing

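Over 84 results for single members and their alternatives, 934 values in all, 816 kept direction and side of the threshold, 4 lost and 14 gained a call, 5 reversed and 95 changed sign where neither value was called. irf9 and irf5 were called lower in pubertal testes under all 19 alternatives (irf5 -2.69 to -1.84), and 2 to 4 members were called. irf2bpl was not called with normexp (-0.27, and -0.14 in the interaction) and was not tested where every array had to be above background, and irf4l was called with quantile normalization (-0.83), the authors' values (-1.31), groups A and B alone (-0.85) and without pubertal fish 202 (-0.85).

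With the authors' processed values all 6 members were called higher in testis than in adipose tissue, where the median of all probes was 1.15 against -0.17; irf5 (1.14), irf4l (1.42), irf7 (0.81) and irf3 (1.102) reversed, as did irf7 between pituitary and adipose tissue (0.19), and irf9 lost its call there (-0.13). The scaling of those values is not stated, and the cause was not tested. In the order of GSI among pubertal testes 1 member, irf5, was called with normexp and 1 with median scaling. Between D and E in adipose tissue 1 member, irf4l, was called without group E fish 236 (1.80) and 1 by the methods' t-test unadjusted; leaving out each array gave 0 to 1. Leaving out fish 236 for its markers, like the values within a scan day, was chosen after seeing the data.

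Without the replicate block the interaction called 3 members, testis minus pituitary 3, testis minus adipose 0 and pituitary minus adipose 4; with fish as a fixed replicate block the interaction called 3. These fits changed no call.

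Counts over all probes moved more. In the testis 21044 probes were called, against 9968 with normexp and 13708 when well above background on every array; 53.9% were higher, against 32.9% with the authors' values. For the interaction these were 21302 and 9787 probes with normexp, and 56.7% and 35.0%. Normexp called 8257 against 18205 probes for testis minus pituitary, 10028 against 20458 for testis minus adipose and 9370 against 18878 for pituitary minus adipose, and the authors' values gave 66.2% against 46.2%, 93.2% against 44.6% and 85.2% against 50.3% higher. In the pituitary 106 probes were called, against 44 with normexp, 5 with scan day as a block, 2 in groups A and B alone, 0 within 1 scan day and 19 with fish 184. Between D and E in adipose tissue no probe was called, against 91 with scan day as a block, 96 with the authors' values, 6 within 1 scan day, 1230 (3.91%) without fish 236 and 353 (1.12%) without the array labelled fish 211. In the order of GSI among pubertal testes no probe was called, against 3067 with normexp, 2260 with median scaling and 742 with the authors' values. Dim signal limits irf2bpl.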
